A study of Bos grunniens with 6 samples.

Results

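The solute carrier (SLC) transporters described here are the 59 rows of the yak gene table whose symbol begins with SLC and a number and whose mean over the 6 samples was at least 1 FPKM (a fragment count scaled by gene length and library size). They are 59 of 15646 rows and carry 58 distinct symbols, because SLC35A4 stands in 2 rows. Of 96 rows with such symbols, 34 lay below that level, the glucose carriers SLC2A1 and SLC2A3 were left out by name, 1 (SLC17A5) was left out because its pathway annotation names the lysosome, and 0 were left out for oxidative phosphorylation. The level over all 6 samples chose the members, so it is a description, while the difference between the cell types was not used to choose them. Just inside the limit were SLC8A1 at a mean of 1.06 FPKM, SLC43A3 at 1.42 FPKM and SLC46A1 at 1.60 FPKM. Just outside it were SLC10A5 at 0.935 FPKM, SLC19A3 at 0.544 FPKM and SLC2A4 at 0.531 FPKM.

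The samples are cultured wild-type cells from yak skin (Bos grunniens), with 3 cultures of hair matrix cells (HMC) and 3 of dermal papilla cells (DPC). The dermal papilla is the mesenchyme enclosed by the hair bulb, a source of signals for hair growth. The hair matrix is the dividing epithelium that surrounds it and gives rise to the shaft. Both types grew in DMEM/F12 with 10% serum, IGF1 at 10 ng/mL and EGF at 20 ng/mL, so these agents are shared by both groups and neither group lacks them. Whether the cultures came from separate animals is not stated, so p-values measure the spread between these cultures only.

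Solute carriers are membrane proteins that move small molecules across the plasma membrane or the membranes of organelles, either down the solute's own gradient or coupled to the movement of sodium, protons or another solute. They are numbered in families by sequence, and a family often shares a kind of cargo: SLC7 proteins carry amino acids, SLC2 proteins sugars and polyols, SLC35 proteins nucleotide sugars into the Golgi and endoplasmic reticulum, SLC39 proteins zinc and other metals, and SLC25 proteins metabolites across the inner mitochondrial membrane. The growing hair is built from keratins and keratin-associated proteins rich in cysteine, and the matrix cells that supply it divide fast, both of which draw on the uptake of amino acids and fuel.

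The 6 libraries held 13.1 to 14.0 M recovered reads each (M, mega). The sum of all FPKM was 548897 to 554803 in DPC, lower than the 647963 to 651773 in HMC, so a share of all FPKM and an FPKM value are not the same comparison. HMC replicate 3 stood apart from the other HMC libraries on the second principal component, at 13.9 against -9.32 and -4.28, but that component held 0.8% of the variance and the first, which separates the cell types, 97.4%. All 8 matched DPC markers were higher in DPC by limma, and their summed level was 17609 to 18302 FPKM in DPC against 584 to 691 FPKM in HMC. Of 8 matched HMC markers 7 were higher in HMC, with a sum of 70.3 to 91.6 FPKM in DPC against 9052 to 9464 FPKM in HMC. The basal keratin KRT14 was not, at 16.2 ± 3.63 FPKM in DPC against 15.0 ± 0.330 FPKM in HMC (SD, n = 3). KRT19 and KRT8 led the HMC sum, at 4090 and 3352 FPKM in HMC. Whether these markers tell hair matrix from other epithelium was not tested. Of 5 matched endothelial markers 4 lay under 0.5 FPKM in both groups, and the list summed to at most 0.299 FPKM in DPC against 1.21 FPKM in HMC. The 5 matched immune markers summed to 13.0 to 13.5 FPKM in DPC against 14.7 to 20.1 FPKM in HMC, but went opposite ways: LAPTM5 averaged 9.46 FPKM in DPC against 0.257 in HMC, AIF1 0.0511 against 6.48 and CD14 2.47 against 10.1. The 5 matched melanocyte markers summed to 13.1 to 13.7 FPKM in DPC against 13.8 to 15.4 FPKM in HMC, and also went opposite ways. Of 4 tested, 1 was higher in DPC, 2 in HMC and 1 in neither. SOX10 was at 0 in DPC and 1.42 FPKM in HMC, MITF averaged 2.83 FPKM in DPC against 1.00 in HMC, and SLC45A2 7.55 against 8.01. The 2 matched skeletal muscle markers summed to at most 0.198 FPKM in either group. The part of other cell types in the differences below was not tested.

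The 59 members together held more of the transcriptome in HMC than in DPC. Their summed level was 1126, 1118 and 1144 FPKM in the DPC libraries and 1622, 1608 and 1594 FPKM in the HMC libraries, a ratio of 1.42, and the groups did not overlap. As a share of all FPKM this was 0.203 to 0.206% in DPC and 0.246 to 0.249% in HMC. As a share of recovered reads it was 0.214 to 0.219% in DPC and 0.2995 to 0.302% in HMC, so the order held on both scales. A few members carry much of these sums: the 3 most abundant took 26.5 to 27.8% of the members' FPKM in DPC and 31.1 to 31.8% in HMC. The 6 members under 1 FPKM in DPC entered only through HMC and add to the HMC sum, as SLC2A5 does with 44.3 FPKM there. The 3 under 1 FPKM in HMC entered only through DPC. Outside the 59, 24 carriers were matched under older names or in mixed case. They summed to 2241 to 2279 FPKM in DPC against 2749 to 2793 FPKM in HMC. In cultures measured in bulk, fewer cells of a type that makes an RNA and less of that RNA per cell cannot be told apart.

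Levels spanned 1.06 to 188.87 FPKM, with a median of 13.7 FPKM. Only 2 members lay above 100 FPKM, 36 lay at 10 to 100 FPKM and 21 below 10 FPKM. The 6 with the highest means were SLC20A3 and SLC20A4 (both annotated as mitochondrial carriers), SLC39A7, SLC25A39, SLC7A5 and SLC16A1. Replicates were close: the median coefficient of variation of members at 1 FPKM or more in the group was 5.00% in DPC and 6.90% in HMC, against 5.94% and 6.47% for all tested genes at a mean of 1 FPKM or more.

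Tested with limma on log2(FPKM + 1), where a difference is DPC minus HMC and low genes are understated, 47 of the 59 members passed an adjusted p of 0.05. The background is near this share, since 75.9% of all 11883 tested genes passed, and 76.5% of the 11201 genes at the members' own level of 1 FPKM or more. Of the members, 18 were higher in DPC (30.5%; background 29.7%, or 29.4% at that level) and 29 higher in HMC (49.2%; background 46.2%, or 47.1%). The other 12 did not pass. At a difference of at least 2-fold on that scale as well, 7 were higher in DPC (background 11.0% at either level) and 13 higher in HMC (background 16.1%, or 16.3%), together 33.9% against 27.1% and 27.3%. The values of the groups did not overlap for 49 members, 83.1%, against 77.9% of tested genes and 78.5% at the members' level. The median difference was -0.11 over the members and -0.15 over all tested genes, and the median size of a difference 0.57 and 0.50. Without HMC replicate 3, 45 members passed, 18 higher in DPC and 27 higher in HMC, beside 8757 of all 11883 tested genes. A member that lies under 1 FPKM in one cell type entered the list only through the other and had to differ. These are 6 members low in DPC (SLC2A5, SLC37A1, SLC7A8, SLC6A14, SLC5A8 and SLC46A1) and 3 low in HMC (SLC6A6, SLC43A3 and SLC8A1), and the counts are not support for a difference.

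**Figure D1:**
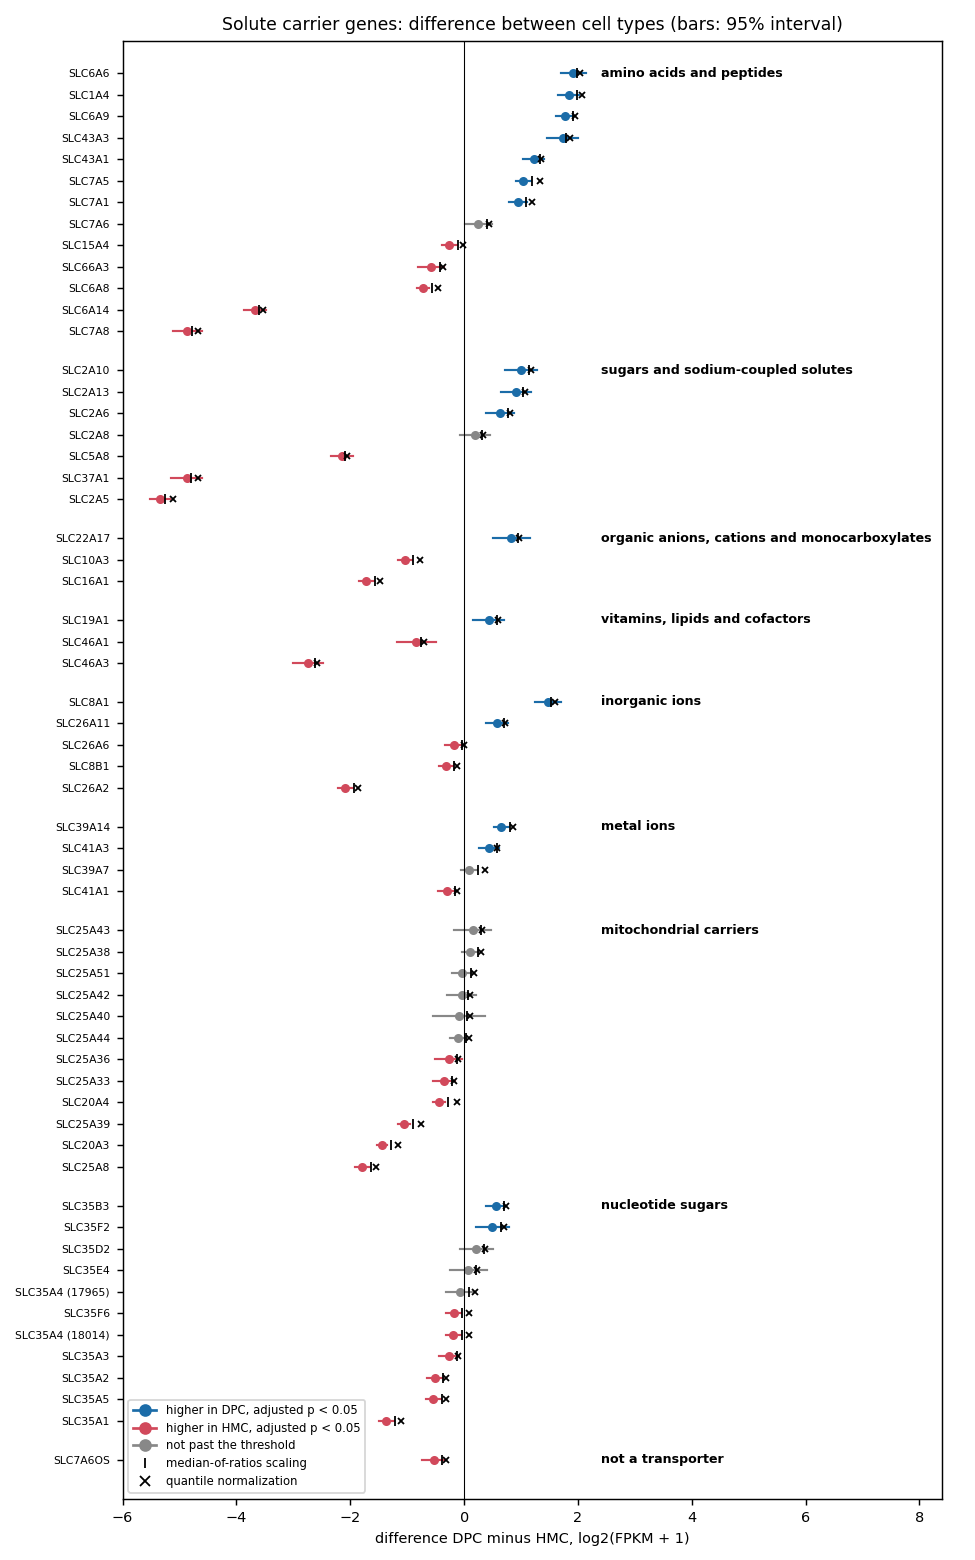
Log2 difference of FPKM + 1 (DPC minus HMC, horizontal axis) of each of the 59 members, drawn in rows by transporter class, with the limma 95% interval as a line, blue for members higher in DPC past an adjusted p of 0.05, red for those higher in HMC and grey for the rest. Upright marks and crosses give the same difference under median-of-ratios and quantile scaling. The members span -5.34 (SLC2A5) to 1.92 (SLC6A6), the long tail lies on the HMC side, and the 12 mitochondrial carriers hold no member past the threshold on the DPC side, or 1 under either other scaling.

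How FPKM is scaled moves the balance. Rescaling by median-of-ratios size factors shifted the median of all genes from -0.15 to -0.02, and quantile normalization to 0.05, and the share of all passing genes that were higher in DPC went from 39.1% to 48.8% and 53.8%. The background shares of 29.7% and 46.2% are those of the main scaling and hold for counts under it only. Among members the passing counts went from 18 and 29 (higher in DPC, higher in HMC) to 23 and 22 under median-of-ratios and to 23 and 20 under quantile normalization. Under all 3 scalings 38 members passed in the same direction, 18 higher in DPC and 20 higher in HMC. These include the 6 members under 1 FPKM in DPC and the 3 under 1 FPKM in HMC, which had to differ. The same share over all tested genes was not computed, so the count of 38 is a description only. The difference of 7 members changed sign under a scaling, and 0 members passed in opposite directions. The members that depend on the scaling are the small differences, and they are named as such where they appear.

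Amino acid and peptide carriers were found on both sides, with a median difference of 0.94. Of 13, 7 were higher in DPC, 5 were higher in HMC and 1 did not pass, where all tested genes give 29.7% and 46.2%. Their summed level was 263 ± 6.08 FPKM in DPC against 219 ± 4.64 FPKM in HMC (SD, n = 3). Under both other scalings the counts were 8 and 4, where 48.8% and 53.8% of all passing genes were higher in DPC. Among the 10 carriers with a mean of at least 5 FPKM the counts were 4 and 5, with a median of -0.003. The larger count on the DPC side thus rests on low members, of which SLC6A6 and SLC43A3 entered the list only through DPC. SLC7A8 and SLC6A14, close to 0 in DPC, entered the list only through HMC and had to differ. Members above 1 FPKM in both cell types also went both ways, such as SLC1A4 (1.83) and SLC6A8 (-0.72).

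On the DPC side, SLC7A5 (LAT1), which exchanges large neutral amino acids such as leucine across the plasma membrane, was the most abundant of the class. Its level was 75.9, 77.4 and 82.4 FPKM in DPC against 35.8, 36.7 and 40.5 FPKM in HMC. Every DPC culture lay above every HMC culture (log2 difference 1.04, SE 0.06, limma adjusted p = 8.37e-07), a ratio of 2.09 between the means. SLC7A1 (CAT1), a carrier of arginine and lysine, had 44.3, 43.1 and 47.4 FPKM in DPC against 21.7, 22.0 and 25.0 FPKM in HMC, and again the groups did not overlap (log2 difference 0.94, SE 0.07, limma adjusted p = 3.43e-06). SLC1A4 (ASCT1), a sodium-dependent exchanger of alanine, serine and cysteine, had 42.1, 37.8 and 39.4 FPKM in DPC against 10.1, 11.7 and 9.55 FPKM in HMC. The lowest DPC culture lay well above the highest HMC culture (log2 difference 1.83, SE 0.08, limma adjusted p = 1.55e-07), 3.80-fold by means.

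The glycine carrier SLC6A9 (GLYT1) had 14.4, 16.0 and 14.9 FPKM in DPC against 3.84, 3.50 and 3.73 FPKM in HMC, with all DPC cultures higher (log2 difference 1.78, SE 0.07, limma adjusted p = 7.32e-08). SLC43A1 (LAT3), which lets branched-chain amino acids through without a coupled ion, had 5.24, 5.53 and 5.24 FPKM in DPC against 1.93, 1.70 and 1.54 FPKM in HMC (log2 difference 1.22, SE 0.08, limma adjusted p = 2.4e-06). Both are thus several times more abundant in the papilla cells while remaining detectable in every matrix culture. The taurine carrier SLC6A6 was low in both types, at 3.04, 2.90 and 3.56 FPKM in DPC against 0.124, 0.131 and 0.0487 FPKM in HMC, but its ratio of 31.2 was the highest on the DPC side of the class (log2 difference 1.92, SE 0.10, limma adjusted p = 3.32e-07). SLC43A3, whose family number places it here although it is known as a purine nucleobase carrier, had 3.15, 2.13 and 2.87 FPKM in DPC against 0.107, 0.0792 and 0.157 FPKM in HMC (log2 difference 1.73, SE 0.12, limma adjusted p = 2.76e-06). For SLC6A6 and SLC43A3 the HMC values are near the lower end of what the libraries can count.

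On the HMC side stood a second set of plasma membrane amino acid carriers. SLC7A8 (LAT2), a close relative of SLC7A5 that also takes large neutral amino acids, was at 0, 0.177 and 0.0438 FPKM in the DPC cultures, 5 recovered reads over all 3, and at 33.8, 31.0 and 26.4 FPKM in the HMC cultures (log2 difference -4.87, SE 0.11, limma adjusted p = 2.57e-09). SLC6A14, which takes up neutral and basic amino acids with sodium and chloride, was at 0.0320, 0 and 0.0968 FPKM in DPC (4 reads over all 3) and 13.2, 12.1 and 11.8 FPKM in HMC (log2 difference -3.68, SE 0.08, limma adjusted p = 2.62e-09). Both were thus near 0 in DPC and above 11 FPKM in every HMC culture, with ratios of 412 and 288 that rest on single reads in DPC. Both also entered the list only through HMC, so their differences are descriptions and not support for a difference. As FPKM is per length, the related pair can be set side by side: DPC held 78.6 FPKM of SLC7A5 and 0.0737 FPKM of SLC7A8, and HMC 37.7 and 30.4 FPKM.

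Smaller differences made up the rest of the class. The creatine carrier SLC6A8 had 23.7, 24.7 and 24.5 FPKM in DPC against 41.4, 40.8 and 40.0 FPKM in HMC, higher in each HMC culture (log2 difference -0.72, SE 0.05, limma adjusted p = 1.62e-06). SLC66A3, of the PQ-loop family, had 12.2, 12.1 and 13.2 FPKM in DPC against 22.5, 17.8 and 17.5 FPKM in HMC (log2 difference -0.58, SE 0.10, limma adjusted p = 0.000785). SLC15A4, which carries histidine and small peptides in endolysosomes, had 23.3, 24.4 and 25.4 FPKM in DPC against 30.2, 29.8 and 28.1 FPKM in HMC (log2 difference -0.26, SE 0.06, limma adjusted p = 0.00307). That last difference did not pass under median-of-ratios (-0.11) or quantile scaling (-0.02). SLC7A6 (y+LAT2), which exchanges basic for neutral amino acids, had 14.1, 11.5 and 10.8 FPKM in DPC against 9.04, 10.6 and 10.3 FPKM in HMC and did not pass (log2 difference 0.25, SE 0.11, limma adjusted p = 0.0587, with a 95% interval, like all given here not adjusted for the number of genes, of 0.01 to 0.50), although its groups did not overlap. It passed as higher in DPC without DPC replicate 3 and under both other scalings, at 0.40 and 0.44. The row next to it in name, SLC7A6OS, is no transporter but an opposite-strand neighbour, with 16.6 ± 0.808 FPKM in DPC against 24.5 ± 2.82 FPKM in HMC (log2 difference -0.53, SE 0.09, limma adjusted p = 0.000591). The RefSeq gene models of the pair overlap in the yak assembly Bosgru_T2T1.0, and the labels do not say whether the authors' counting used strand, so both rows are uncertain.

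**Figure D2:**
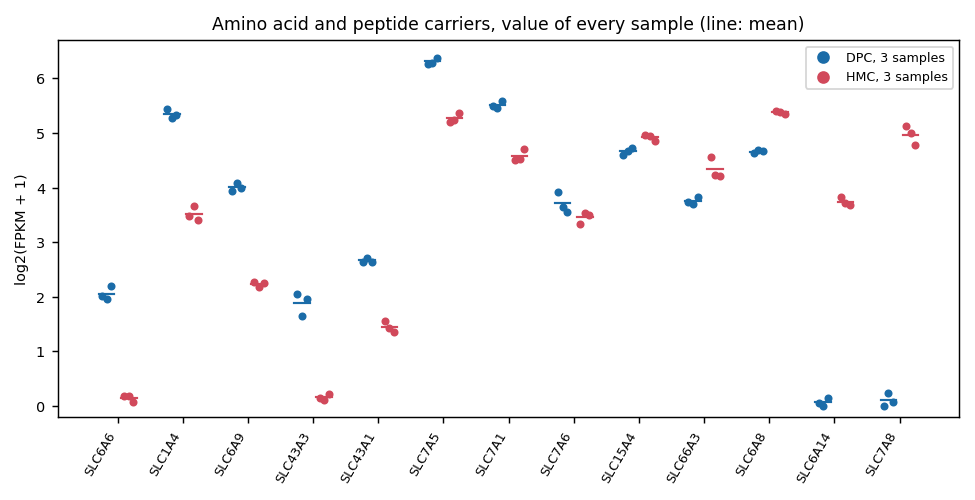
Level of the 13 amino acid and peptide carriers as log2(FPKM + 1) in each of the 3 DPC cultures (blue points) and 3 HMC cultures (red points), with the group mean as a line. SLC7A5 lies at 75.9 to 82.4 FPKM in DPC against 35.8 to 40.5 FPKM in HMC, while SLC7A8 and SLC6A14 lie near 0 in DPC.

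Sugar carriers and sodium-coupled carriers of the SLC2, SLC5 and SLC37 families summed to 42.7 ± 1.73 FPKM in DPC against 103 ± 4.29 FPKM in HMC (SD, n = 3). By count they were even, with 3 of 7 higher in DPC, 3 of 7 higher in HMC and 1 that did not pass. All tested genes give 29.7% and 46.2%. The 3 carriers on the HMC side were close to absent from DPC. Those 3 entered the list only through HMC, and the larger HMC sum rests on them, so it is not support for a difference. All other members of the class, with the 1 that did not pass, had the higher mean in DPC. The fructose carrier SLC2A5 (GLUT5) had 0.0700, 0.179 and 0.106 FPKM in DPC, 10 reads in all, and 41.5, 45.1 and 46.4 FPKM in HMC, the largest log2 difference of all members (log2 difference -5.34, SE 0.08, limma adjusted p = 2.58e-10). SLC37A1, which exchanges glucose 6-phosphate for phosphate at the endoplasmic reticulum, had 0.147, 0.0428 and 0.0212 FPKM in DPC, 10 reads in all, and 32.1, 34.2 and 25.6 FPKM in HMC (log2 difference -4.88, SE 0.12, limma adjusted p = 3.49e-09). The ratios of their means, 375 and 436, rest on those few reads.

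SLC5A8 (SMCT1), a sodium-coupled carrier of lactate, pyruvate and short-chain fatty acids, had no read in any DPC culture. In HMC it stood at 3.69, 3.35 and 3.31 FPKM, at least 87.5-fold higher when DPC is set at the limit of 3 counts over the group (log2 difference -2.15, SE 0.08, limma adjusted p = 6.41e-08). That limit, like the ratios above, covers counting error only.

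The sugar carriers that were higher in DPC differed less. SLC2A10 (GLUT10) had 14.7, 14.1 and 14.0 FPKM in DPC against 8.30, 5.65 and 6.27 FPKM in HMC (log2 difference 1.00, SE 0.12, limma adjusted p = 8.68e-05). The proton-coupled myo-inositol carrier SLC2A13 had 9.80, 9.66 and 7.23 FPKM in DPC against 4.42, 4.26 and 4.04 FPKM in HMC (log2 difference 0.91, SE 0.11, limma adjusted p = 0.000114). In both, each DPC culture was above each HMC culture. SLC2A6 (GLUT6), found on lysosomes, had 13.5 ± 1.39 FPKM in DPC against 8.40 ± 1.16 FPKM in HMC (log2 difference 0.63, SE 0.11, limma adjusted p = 0.000753). SLC2A8 (GLUT8), which stays largely inside the cell, had 6.89, 4.73 and 5.61 FPKM in DPC against 4.91, 4.81 and 4.88 FPKM in HMC and did not pass (log2 difference 0.19, SE 0.11, limma adjusted p = 0.168, 95% interval -0.08 to 0.45). Under the other scalings it passed as higher in DPC, at 0.32 and 0.34. The SLC2 members described here thus went both ways.

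Carriers of organic ions and monocarboxylates were few, with 1 of 3 higher in DPC and 2 higher in HMC. Of all tested genes 29.7% and 46.2% went these ways. SLC16A1 (MCT1), which moves lactate and pyruvate together with a proton, had 18.3, 18.4 and 18.9 FPKM in DPC against 59.7, 62.9 and 67.9 FPKM in HMC. All HMC cultures lay above all DPC cultures (log2 difference -1.72, SE 0.06, limma adjusted p = 2.82e-08), 3.42-fold by means. SLC10A3, a bile acid carrier relative whose cargo is not known, had 23.1, 22.7 and 24.9 FPKM in DPC against 48.0, 50.9 and 49.9 FPKM in HMC (log2 difference -1.04, SE 0.05, limma adjusted p = 4.36e-07). SLC22A17, known as a receptor for lipocalin-2, had 3.98, 5.46 and 3.58 FPKM in DPC against 1.99, 2.26 and 1.71 FPKM in HMC and was the one higher in DPC (log2 difference 0.83, SE 0.14, limma adjusted p = 0.000723). The sum of the 3 was 46.5 ± 1.01 FPKM in DPC against 115 ± 5.04 FPKM in HMC (SD, n = 3).

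Mitochondrial carriers summed to 348 ± 5.90 FPKM in DPC against 661 ± 3.28 FPKM in HMC (SD, n = 3), a ratio of 1.90. Of the 12, 0 were higher in DPC, 6 were higher in HMC and 6 did not pass, where the background gives 29.7% and 46.2%. The counts were 1 and 5 under median-of-ratios, 1 and 4 under quantile normalization, 1 and 5 without HMC replicate 1, and 0 and 5 without HMC replicate 3. Of all passing genes 48.8% were higher in DPC under median-of-ratios and 53.8% under quantile normalization. The rows SLC20A3 and SLC20A4 are counted here because the table annotates them as the citrate carrier and the oxoglutarate/malate carrier, which are now called SLC25A1 and SLC25A11, and not as phosphate carriers. Relatives that stand under older names or in mixed case are not counted here. Of those described below, SLC25A4 and Slc25a35 were higher in DPC, and SLC25A3, SLC25A5 and SLC25A6 higher in HMC. The count of 0 thus holds for the 12 members only.

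The difference in the sum lay largely in 4 abundant carriers. The citrate carrier SLC20A3 (SLC25A1), which exports citrate to the cytosol where it feeds fatty acid synthesis, had 102, 97.4 and 105 FPKM in DPC against 278, 277 and 275 FPKM in HMC. It was the most abundant member in HMC and 2.72-fold lower in DPC (log2 difference -1.44, SE 0.04, limma adjusted p = 6.99e-09). SLC25A8 (UCP2), a carrier of the uncoupling protein group, had 16.8, 16.4 and 17.5 FPKM in DPC against 57.8, 61.2 and 64.3 FPKM in HMC (log2 difference -1.79, SE 0.06, limma adjusted p = 1.83e-08), 3.61-fold by means. SLC25A39, which brings glutathione into mitochondria, had 54.3, 50.7 and 52.7 FPKM in DPC against 113, 108 and 110.5 FPKM in HMC (log2 difference -1.06, SE 0.04, limma adjusted p = 1.04e-07). The oxoglutarate/malate carrier SLC20A4 (SLC25A11), part of the malate-aspartate shuttle, had 84.6, 80.4 and 87.1 FPKM in DPC against 112, 117 and 114 FPKM in HMC (log2 difference -0.44, SE 0.04, limma adjusted p = 2.93e-05). In all 4 the lowest HMC culture lay above the highest DPC culture, and each passed under all 3 scalings.

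The other mitochondrial carriers differed little. The pyrimidine nucleotide carriers SLC25A33 and SLC25A36 were both higher in HMC. The first had 9.40 ± 0.707 FPKM in DPC against 12.3 ± 1.02 FPKM in HMC (log2 difference -0.36, SE 0.08, limma adjusted p = 0.0042). The second had 8.28 ± 0.912 FPKM in DPC against 10.2 ± 1.18 FPKM in HMC (log2 difference -0.27, SE 0.10, limma adjusted p = 0.0383). The call of SLC25A36 was lost under both other scalings, with no filter, with the replicate block and without DPC replicate 1 or 3 or HMC replicate 1 or 3, and that of SLC25A33 under quantile normalization. The 6 that did not pass ranged from -0.11 (SLC25A44, a carrier of branched-chain amino acids) over SLC25A40 (-0.09), SLC25A42 (-0.04) and SLC25A51 (-0.03) to SLC25A38 (0.10) and SLC25A43 (0.15). SLC25A40 is the close relative of SLC25A39, with 13.7, 14.0 and 8.42 FPKM in DPC against 15.4, 12.6 and 10.2 FPKM in HMC, and its 95% interval was -0.56 to 0.37. The NAD+ carrier SLC25A51 had 18.6, 17.1 and 16.9 FPKM in DPC against 17.4, 19.9 and 16.7 FPKM in HMC. For the coenzyme A carrier SLC25A42 the values were 2.92, 2.21 and 2.85 FPKM in DPC against 2.43, 3.13 and 2.74 FPKM in HMC. Their groups overlapped, as did those of SLC25A40. SLC25A38, which supplies glycine for heme synthesis, had 16.4 ± 0.115 FPKM in DPC against 15.3 ± 0.913 FPKM in HMC, and it passed as higher in DPC under both other scalings. SLC25A43 passed as higher in DPC without HMC replicate 1 (0.30, limma adjusted p = 0.0457). The signs of SLC25A40, SLC25A42, SLC25A44 and SLC25A51 turned under both.

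**Figure D3:**
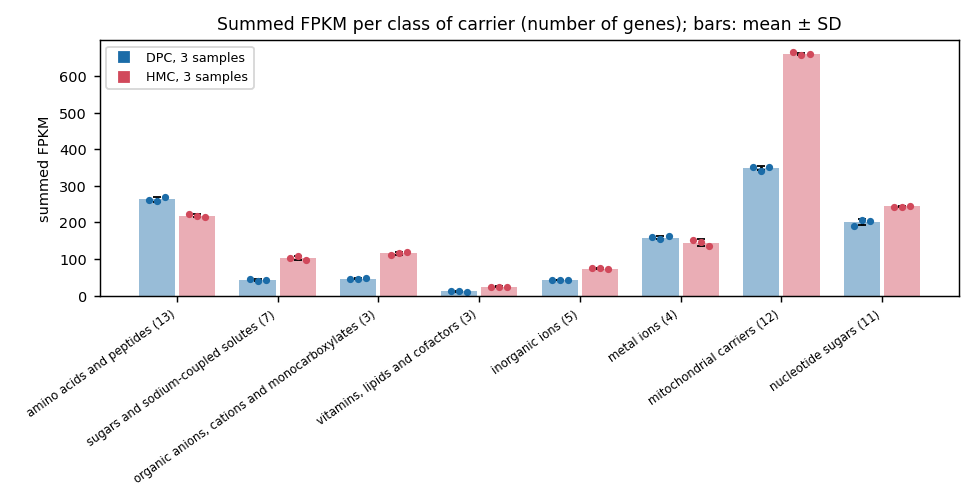
Summed FPKM of the members of each transporter class, with the number of members in brackets: points are cultures, bars the mean of 3 DPC (blue) or 3 HMC (red) cultures and whiskers the SD. The mitochondrial carriers lie at 341 to 352 FPKM in DPC against 658 to 664 FPKM in HMC, and the amino acid carriers at 258 to 269.6 FPKM in DPC against 215 to 224 FPKM in HMC.

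Carriers of inorganic ions held 5 members, 2 higher in DPC and 3 higher in HMC, where all tested genes give 29.7% and 46.2%. SLC26A2, the sulfate carrier needed to sulfate cartilage proteoglycans, had 8.67, 7.90 and 8.55 FPKM in DPC against 39.4, 39.2 and 37.8 FPKM in HMC. The groups lay far apart (log2 difference -2.09, SE 0.06, limma adjusted p = 8.5e-09), 4.63-fold by means. SLC26A11, another sulfate carrier, went the other way, with 5.07, 5.18 and 5.34 FPKM in DPC against 3.53, 3.17 and 2.81 FPKM in HMC (log2 difference 0.57, SE 0.09, limma adjusted p = 0.000349). The plasma membrane sodium/calcium exchanger SLC8A1 (NCX1) was at a low level, with 7 recovered reads over the 3 HMC cultures: 1.82, 2.34 and 1.95 FPKM in DPC against 0.115, 0.0760 and 0.0753 FPKM in HMC (log2 difference 1.48, SE 0.10, limma adjusted p = 1.91e-06). Its mitochondrial relative SLC8B1 (NCLX) had 15.8, 16.1 and 16.4 FPKM in DPC against 21.2, 20.1 and 19.7 FPKM in HMC (log2 difference -0.32, SE 0.05, limma adjusted p = 0.000796) and was higher in HMC, a call that quantile normalization did not keep. The anion exchanger SLC26A6 had 10.9, 9.91 and 9.65 FPKM in DPC against 11.5, 11.6 and 11.7 FPKM in HMC, a difference of -0.18 that passed narrowly (limma adjusted p = 0.0358) and was lost under both other scalings, with the replicate block, and on leaving out any culture other than DPC replicate 1. The class summed to 41.8 ± 0.431 FPKM in DPC against 74.0 ± 1.81 FPKM in HMC (SD, n = 3), and SLC26A2 carried most of that difference.

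Metal carriers held 4 members, none of them at 2-fold. Of these 2 were higher in DPC, 1 was higher in HMC and 1 did not pass, where all tested genes give 29.7% and 46.2%. SLC39A7 (ZIP7), which releases zinc from the endoplasmic reticulum, was the most abundant of them at 123, 118 and 127 FPKM in DPC against 122, 119 and 106 FPKM in HMC. Its groups overlapped and it did not pass (log2 difference 0.09, SE 0.06, limma adjusted p = 0.209, 95% interval -0.05 to 0.22). It passed as higher in DPC under the other scalings, at 0.24 and 0.37. SLC39A14 (ZIP14), which takes up zinc and iron, had 19.7, 17.9 and 18.5 FPKM in DPC against 11.2, 11.7 and 11.5 FPKM in HMC (log2 difference 0.66, SE 0.06, limma adjusted p = 1.65e-05). Of the magnesium carriers, SLC41A3 was higher in DPC, at 7.10 ± 0.478 FPKM in DPC against 4.97 ± 0.124 FPKM in HMC (log2 difference 0.44, SE 0.07, limma adjusted p = 0.000697). SLC41A1 was higher in HMC, at 9.90 ± 0.328 FPKM in DPC against 12.5 ± 0.897 FPKM in HMC (log2 difference -0.31, SE 0.07, limma adjusted p = 0.00409), and its call was lost under both other scalings.

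**Figure D4:**
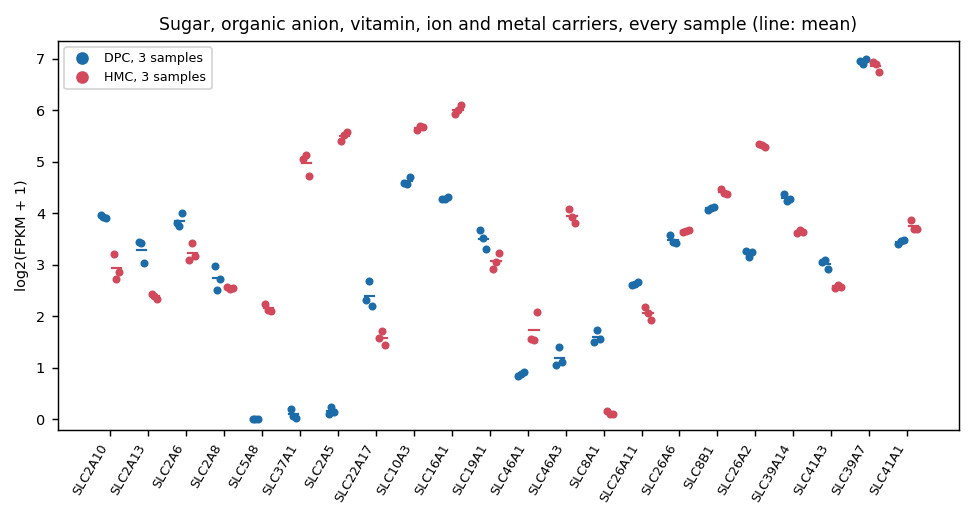
Level of the 22 members of the sugar, organic ion, vitamin, inorganic ion and metal classes as log2(FPKM + 1) in each of the 3 DPC cultures (blue points) and 3 HMC cultures (red points), with the group mean as a line. SLC5A8, SLC37A1 and SLC2A5 lie at or near 0 in DPC, SLC8A1 near 0 in HMC, and SLC39A7 is at the top with overlapping groups.

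The SLC35 family, most of whose known members carry nucleotide sugars or the sulfate donor PAPS into the Golgi and endoplasmic reticulum, held 11 members. Of these 2 were higher in DPC, 6 were higher in HMC and 3 did not pass, near 29.7% and 46.2% of all tested genes. Under both other scalings the counts were 3 and 3, where 48.8% and 53.8% of all passing genes were higher in DPC. The 11 members summed to 200 ± 8.29 FPKM in DPC against 244 ± 1.73 FPKM in HMC (SD, n = 3). SLC35A1, which carries the sialic acid donor, had 17.1, 17.9 and 17.6 FPKM in DPC against 43.9, 49.3 and 47.2 FPKM in HMC and was the one member at 2-fold (log2 difference -1.36, SE 0.06, limma adjusted p = 1.12e-07). The UDP-galactose carrier SLC35A2 had 10.8, 11.3 and 11.1 FPKM in DPC against 15.6, 16.0 and 17.1 FPKM in HMC (log2 difference -0.51, SE 0.06, limma adjusted p = 7.83e-05). SLC35A5 had 18.8, 17.5 and 17.7 FPKM in DPC against 25.4, 27.2 and 27.1 FPKM in HMC (log2 difference -0.54, SE 0.06, limma adjusted p = 3.89e-05). These 3 passed under all 3 scalings.

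Other SLC35 differences were small or on the DPC side. The UDP-N-acetylglucosamine carrier SLC35A3 had 8.38 ± 0.536 FPKM in DPC against 10.3 ± 0.587 FPKM in HMC (log2 difference -0.27, SE 0.07, limma adjusted p = 0.0106). SLC35F6 had 30.5 ± 1.18 FPKM in DPC against 34.8 ± 1.87 FPKM in HMC (log2 difference -0.18, SE 0.06, limma adjusted p = 0.0192). The SLC35A4 row ENSBGRG00000018014 had 37.5 ± 1.95 FPKM in DPC against 42.9 ± 1.87 FPKM in HMC (log2 difference -0.19, SE 0.06, limma adjusted p = 0.0162). All of these calls as higher in HMC were lost under both other scalings, and the last pair also without DPC replicate 1 or 3, and SLC35F6 without HMC replicate 1 or 2. The second SLC35A4 row, ENSBGRG00000017965, had 31.3 ± 3.43 FPKM in DPC against 32.8 ± 4.12 FPKM in HMC and did not pass (-0.07, limma adjusted p = 0.594). Rows of one symbol may share reads, so both are uncertain. SLC35B3, which carries PAPS, had 14.2, 15.4 and 14.3 FPKM in DPC against 9.60, 10.4 and 8.84 FPKM in HMC and was higher in DPC (log2 difference 0.56, SE 0.07, limma adjusted p = 0.000183). So was SLC35F2, at 17.7, 17.9 and 24.8 FPKM in DPC against 13.0, 13.7 and 14.9 FPKM in HMC (log2 difference 0.49, SE 0.13, limma adjusted p = 0.00707). Another SLC35F2 row, ENSBGRG00000020449, lay below the members' level and did not pass. It had 0.621 FPKM in DPC against 0.401 FPKM in HMC (0.23, limma adjusted p = 0.282), and the same uncertainty applies. SLC35D2 (0.22, limma adjusted p = 0.14) and SLC35E4 (0.07, limma adjusted p = 0.646) did not pass. SLC35D2 passed as higher in DPC under both other scalings and without DPC replicate 1, and SLC35E4 without HMC replicate 1.

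Folate and lysosomal carriers of the SLC19 and SLC46 families closed the list, with 1 of 3 higher in DPC and 2 higher in HMC. The shares of all tested genes were 29.7% and 46.2%. SLC46A3, a lysosomal relative of the folate carriers, had 1.09, 1.65 and 1.17 FPKM in DPC against 16.0, 14.2 and 13.1 FPKM in HMC. The HMC cultures lay 11.1-fold above the DPC cultures by means (log2 difference -2.75, SE 0.11, limma adjusted p = 1.03e-07). The reduced folate carrier SLC19A1 had 11.7, 10.4 and 8.94 FPKM in DPC against 6.55, 7.32 and 8.43 FPKM in HMC, with the lowest DPC culture just above the highest HMC culture (log2 difference 0.43, SE 0.12, limma adjusted p = 0.00907). The proton-coupled folate carrier SLC46A1 had 0.787, 0.851 and 0.887 FPKM in DPC against 1.94, 1.92 and 3.22 FPKM in HMC, higher in HMC, with HMC replicate 3 above the other HMC cultures (log2 difference -0.85, SE 0.15, limma adjusted p = 0.000925).

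The members can also be grouped by the table's own annotation of place. Of the 26 annotated to the plasma membrane, 13 were higher in DPC and 11 in HMC, and 2 did not pass, where all tested genes give 29.7% and 46.2%, here and for the places below. The 14 annotated to the mitochondrion, which include 2 beyond the carriers above, had 0 that were higher in DPC, 8 that were higher in HMC and 6 that did not pass. The median size of a difference was 0.88 for the plasma membrane and 0.23 for the mitochondrion. Members under 1 FPKM in one cell type had to differ, and none of the 12 mitochondrial carriers is among those. How members were chosen may thus set part of this contrast. Under quantile normalization the plasma membrane counts were 15 for DPC against 8 for HMC, and the mitochondrial counts 1 against 4. With that scaling 53.8% of all passing genes were higher in DPC. The 9 members annotated to the Golgi held 2 higher in DPC and 5 higher in HMC. Among the 12 annotated with symporter activity, which moves a solute together with an ion, 6 were higher in DPC against 5 in HMC.

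Many solute carriers stand in the table under older names or in mixed case and so are not among the 59. No member belongs to the nucleoside families SLC28 and SLC29, but the nucleoside carrier SLC29A1 stands under its older name ENT1, at 175, 168 and 171 FPKM in DPC against 35.5, 37.2 and 38.7 FPKM in HMC (log2 difference 2.18, SE 0.05, limma adjusted p = 1.79e-09), more than any member in DPC. A list of 40 such transporters matched 22 tested rows beyond the members. Of these 7 were higher in DPC, 13 were higher in HMC, and 2 did not pass, against the same background of 29.7% and 46.2%. Under median-of-ratios the counts were 8 and 12, and under quantile normalization 8 and 11, where 48.8% and 53.8% of all passing genes were higher in DPC. Of the 9 rows in mixed case, Slc22a23, named after its values were seen and a relative of the organic ion carriers, had the largest difference, at 0.251, 0.228 and 0.225 FPKM in DPC against 29.9, 29.4 and 28.0 FPKM in HMC (log2 difference -4.61, SE 0.07, limma adjusted p = 2.84e-10). Slc7a4 was also higher in HMC (-3.06, limma adjusted p = 2.05e-08). Slc25a35, of the mitochondrial carrier family but not among the 12 carriers above, was higher in DPC under all 3 scalings. It had 6.80 ± 0.330 FPKM in DPC against 3.86 ± 0.760 FPKM in HMC (log2 difference 0.69, SE 0.12, limma adjusted p = 0.000854). Slc7a11, described below, was higher in DPC and Slc66a1 did not pass.

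Amino acid carriers of that list were found on both sides. SLC1A5 (as ASCT2), the main glutamine carrier of many dividing cells, had 286, 282 and 282 FPKM in DPC against 127, 133 and 138 FPKM in HMC, higher in DPC (log2 difference 1.09, SE 0.04, limma adjusted p = 5.06e-08). SLC7A11 (as Slc7a11), which takes up cystine in exchange for glutamate, had 4.90, 5.50 and 5.09 FPKM in DPC against 1.81, 1.83 and 1.24 FPKM in HMC (log2 difference 1.24, SE 0.11, limma adjusted p = 1.31e-05). SLC38A2 (as SNAT2), a sodium-coupled carrier of small neutral amino acids, did not pass, at 136 ± 4.06 FPKM in DPC against 131 ± 2.49 FPKM in HMC (log2 difference 0.06, SE 0.04, limma adjusted p = 0.2). It passed as higher in DPC under both other scalings, at 0.21 and 0.33. Its relative SLC38A1 (as ATA1) was higher in HMC (-0.17, limma adjusted p = 0.00907), a call lost under both other scalings, with the sign turned under quantile normalization (0.10). On the HMC side was the glutamate carrier SLC1A1 (as EAAC1), at 0.112 ± 0.0843 FPKM in DPC against 29.2 ± 0.993 FPKM in HMC (log2 difference -4.76, SE 0.08, limma adjusted p = 5.98e-10). Beside it was SLC1A3 (as EAAT1), at 0.343 ± 0.0596 FPKM in DPC against 16.96 ± 0.969 FPKM in HMC (log2 difference -3.74, SE 0.08, limma adjusted p = 1.89e-09). The arginine carrier SLC7A2 (as ATRC2) was also higher in HMC, at 3.67 ± 0.405 FPKM in DPC against 16.0 ± 0.693 FPKM in HMC (log2 difference -1.86, SE 0.08, limma adjusted p = 1.59e-07), opposite in direction to SLC7A1.

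Of the chloride and phosphate carriers described from the list, 1 was higher in DPC and the others in HMC. SLC12A2 (as NKCC1), which brings sodium, potassium and chloride into the cell, had 57.3, 56.4 and 55.8 FPKM in DPC against 204, 211 and 200.3 FPKM in HMC (log2 difference -1.84, SE 0.04, limma adjusted p = 1.64e-09). Its counterpart SLC12A4 (as KCC1), which lets potassium and chloride out, had 36.2 ± 1.63 FPKM in DPC against 14.3 ± 0.465 FPKM in HMC and was higher in DPC (log2 difference 1.28, SE 0.06, limma adjusted p = 1.51e-07). The pair thus went in opposite directions. The phosphate carriers SLC20A1 (as Pit1) and SLC20A2 (as PIT2) differed by -0.82 and -2.08, with limma adjusted p-values of 7.61e-07 and 1.85e-08.

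The mitochondrial ADP/ATP carriers differed by isoform. SLC25A4 (as ANT1) had 215 ± 3.20 FPKM in DPC against 129 ± 6.50 FPKM in HMC and was higher in DPC (log2 difference 0.74, SE 0.04, limma adjusted p = 1.14e-06). SLC25A5 (as ANT2) had 133 ± 4.56 FPKM in DPC against 435 ± 10.7 FPKM in HMC and was higher in HMC (log2 difference -1.70, SE 0.04, limma adjusted p = 2.8e-09). SLC25A6 (as ANT3), the most abundant, had 539.8 ± 13.7 FPKM in DPC against 647 ± 24.2 FPKM in HMC (log2 difference -0.26, SE 0.04, limma adjusted p = 0.000272). The call of SLC25A6 was lost under quantile normalization. These near-identical genes may share reads, so their single values are uncertain. The mitochondrial phosphate carrier SLC25A3 (as PHC) had 329.7 ± 3.01 FPKM in DPC against 541 ± 10.9 FPKM in HMC (log2 difference -0.71, SE 0.03, limma adjusted p = 1.12e-07). Among choline carriers, SLC44A1 (as CD92) differed by 0.66 and SLC44A2 (as CTL2) by -1.27, the first higher in DPC and the second in HMC (limma adjusted p = 2.2e-06 and 1.02e-06).

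**Figure D5:**
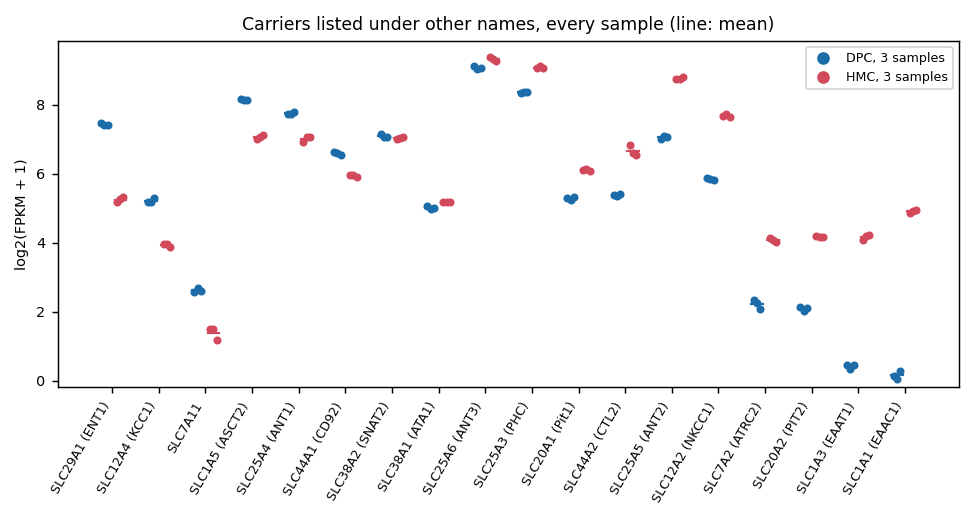
Level of the described carriers that the table lists under older names (in brackets) or in mixed case as log2(FPKM + 1) in each of the 3 DPC cultures (blue points) and 3 HMC cultures (red points), with the group mean as a line. ENT1 (SLC29A1) and ASCT2 (SLC1A5) lie higher in DPC, and NKCC1 (SLC12A2), EAAC1 (SLC1A1) and EAAT1 (SLC1A3) higher in HMC.

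Proteins that work with solute carriers were mostly higher in HMC. Of 10 tested, 9 were higher in HMC and 1 in DPC, against 46.2% and 29.7% of all tested genes. Under quantile normalization the counts were 6 and 1, where 53.8% of all passing genes were higher in DPC. The sodium pump sets the sodium gradient that many carriers use, and its beta subunit ATP1B1 had 5.46, 6.84 and 5.42 FPKM in DPC against 47.9, 47.5 and 50.3 FPKM in HMC (log2 difference -2.85, SE 0.09, limma adjusted p = 1.45e-08). Its regulator FXYD3 had 0.0726 ± 0.126 FPKM in DPC against 35.9 ± 6.75 FPKM in HMC (log2 difference -5.09, SE 0.14, limma adjusted p = 8.41e-09). EMB (embigin), which escorts monocarboxylate carriers to the membrane, had 6.06 ± 0.834 FPKM in DPC against 45.2 ± 2.71 FPKM in HMC (log2 difference -2.72, SE 0.09, limma adjusted p = 3.33e-08). BSG (basigin), the usual escort of SLC16A1, had 268 ± 2.00 FPKM in DPC against 336 ± 1.74 FPKM in HMC (log2 difference -0.33, SE 0.03, limma adjusted p = 1.3e-05). The call of BSG was lost under quantile normalization, as were those of ATP1B3 and ARL6IP5, which median-of-ratios did not keep either. The membrane protein STOM was the one higher in DPC (1.37, limma adjusted p = 7.04e-08). SLC3A2, the heavy chain that SLC7A5 and SLC7A8 pair with, was not analysed here.

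Genes of the amino acid response, through which ATF4 raises amino acid synthesis and uptake when amino acids are short, were mostly higher in DPC: 13 of 18 tested passed that way, 2 were higher in HMC, and 3 did not pass, against 29.7% and 46.2% of all tested genes. Under both other scalings the counts were 15 and 2, where 48.8% and 53.8% of all passing genes were higher in DPC. PHGDH, the first enzyme of serine synthesis, had 194, 200.4 and 189 FPKM in DPC against 27.5, 26.0 and 26.6 FPKM in HMC (log2 difference 2.82, SE 0.04, limma adjusted p = 3.48e-10). TRIB3 had 52.0 ± 1.94 FPKM in DPC against 7.19 ± 0.363 FPKM in HMC (log2 difference 2.69, SE 0.06, limma adjusted p = 2.3e-09). SHMT2, which makes glycine from serine in mitochondria, had 266 ± 6.06 FPKM in DPC against 76.7 ± 7.01 FPKM in HMC (log2 difference 1.78, SE 0.06, limma adjusted p = 3.83e-08). ATF4 itself had 692 ± 9.28 FPKM in DPC against 469.7 ± 8.82 FPKM in HMC (log2 difference 0.56, SE 0.03, limma adjusted p = 4.6e-07). On the HMC side were DDIT4 (-1.59, limma adjusted p = 2.26e-07) and GPT2 (-0.50, limma adjusted p = 0.00101). How these genes relate to the carriers was not tested.

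Genes of cystine and glutathione handling split, with 3 of 11 higher in DPC, 6 of 11 higher in HMC and 2 that did not pass, where all tested genes give 29.7% and 46.2%. NQO1 (2.06) and CTH (1.42), which makes cysteine from cystathionine, were higher in DPC, and HMOX1 (-1.83), which breaks down heme, was higher in HMC, with limma adjusted p-values of 3.25e-07, 5.83e-08 and 3.18e-08. Of 8 genes of zinc, copper and iron handling 0 were higher in DPC, 6 were higher in HMC and 2 did not pass, against the same 29.7% and 46.2%. Under quantile normalization, where 53.8% of all passing genes were higher in DPC, the counts were 1 and 3. The count of 0 depends on how the lists were drawn. The ferritin heavy chain FTH1 stood in both lists and was higher in HMC (-1.13, limma adjusted p = 5.64e-09). The light chain FTL stood only in the cystine and glutathione list. It was higher in DPC, at 38.8 ± 8.90 FPKM against 14.8 ± 3.19 FPKM in HMC (log2 difference 1.33, SE 0.18, limma adjusted p = 0.000188). FTL matched 2 rows and FTH1 4, of which only the highest is used. Rows of one gene may share reads, so both ferritin values are uncertain. The copper chaperone ATOX1 had 167 ± 10.2 FPKM in DPC against 433 ± 43.0 FPKM in HMC (log2 difference -1.37, SE 0.08, limma adjusted p = 6.76e-07). For the transferrin receptor TFRC the levels were 29.0 ± 1.04 FPKM in DPC against 64.2 ± 3.03 FPKM in HMC (log2 difference -1.12, SE 0.05, limma adjusted p = 2.48e-07). Of 11 genes of pH and volume control 4 were higher in DPC and 7 higher in HMC, not far from those shares. CA9, a carbonic anhydrase on the cell surface, had 0.178 ± 0.133 FPKM in DPC against 9.53 ± 0.846 FPKM in HMC (log2 difference -3.16, SE 0.11, limma adjusted p = 3.34e-08). The sodium channel subunit SCNN1A had 0.113 ± 0.0389 FPKM in DPC against 4.99 ± 0.367 FPKM in HMC (log2 difference -2.43, SE 0.09, limma adjusted p = 3.92e-08). STK39 (SPAK), the kinase that switches on NKCC1, had 3.39 ± 0.476 FPKM in DPC against 0.213 ± 0.0551 FPKM in HMC (log2 difference 1.85, SE 0.11, limma adjusted p = 7.64e-07). The proton pump subunit ATP6V0A1 differed by -1.83 (limma adjusted p = 9.43e-09).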

How the data were processed

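RNA was measured in 3 DPC and 3 HMC cultures of yak skin cells, as stranded mRNA libraries from Trizol extracts, per the labels' protocols. The authors deposited FPKM per gene in 1 table. Trimmomatic, HISAT2 2.2.1.0 and DESeq 1.20.0 are named, without roles, per the submitters' processing notes. Not given in the sources used here: the read counter, its use of strand, the genome build and the annotation. Coordinates and sequences are therefore not printed. Of the members, 55 matched a RefSeq symbol of the yak assembly Bosgru_T2T1.0.

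Every row's FPKM fell on whole steps (100% of genes, relative tolerance 1e-09), which gave back reads up to a common factor per gene. A recovered read count is therefore a lower limit. Groups were compared with limma 3.58.1 (R 4.3.3) with the prior variance following a trend, on log2(FPKM + 1) of the 11883 genes whose mean reached 0.5 FPKM. Tests were two-sided, with Benjamini-Hochberg adjustment over all of these and a threshold of 0.05. All 59 members passed that filter. The procedure was tested on simulated data. Python 3.11.15, numpy 2.4.6, pandas 2.3.3 and matplotlib 3.10.9 did the rest.

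The members, the 12 gene lists and the tests were chosen with earlier results of these data known. Members were sorted into classes by family number. The classes of SLC20A3, SLC20A4 and SLC7A6OS, and the matches to older symbols, were set after the table was seen, from its own annotation. A symbol found in several rows is represented in the lists by the row of highest mean. The named genes are, by rule, up to 4 members of a class with the largest passing differences in each direction and its most abundant one, the 6 most abundant members, a fixed set of known carriers, the members that changed with the scaling, and for each list up to 4 genes of largest difference and the most abundant. The remaining members, and some list genes, were named after their values were seen, so that every member is accounted for. A few selected genes of the lists are not reported here. Alternatives were a pseudocount of 0.1, no filter, a filter at 5 FPKM, median-of-ratios scaling, quantile normalization, a prior without trend, voom on the recovered reads, the replicate number as a block, each culture left out in turn, and a limit of 2-fold.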

Additional observations from a re-analysis of the deposited data

How the results depend on the processing

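Of 9020 genes past the threshold, the alternatives gave 6808 (filter at 5 FPKM, fewer genes tested) to 9851 (no filter), and 8560 to 8757 with a culture left out. Members higher in DPC numbered 12 (filter at 5 FPKM, 49 members tested) to 23 (both scalings), and 18 to 20 with a culture left out. Members higher in HMC numbered 20 (quantile) to 29, and 25 to 28 with a culture left out. With the limit of 2-fold they were 7 and 13. Whether the replicate numbers pair the samples stayed undecided. Same-numbered cultures correlated at 0.02, 0.03 and 0.01 in their deviations. DPC replicate 3 correlated best with HMC replicate 2, at 0.0068 against 0.0064 with HMC replicate 3. Each other DPC culture correlated best with the HMC culture of its own number. Such small correlations, from 3 cultures per group, cannot decide whether same-numbered cultures share a source. With the replicate block 8924 genes and 45 members passed, 18 higher in DPC and 27 in HMC, and SLC26A6 (adjusted p = 0.0633) and SLC25A36 (adjusted p = 0.0594) did not. Voom on the recovered reads called 9051 genes and 48 members, with SLC7A6 added.

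Among the members and the list genes named, these differences turned sign, none of them passing in the new direction; the cause was not tested. Under median-of-ratios they were SLC25A51 (0.113), SLC25A42 (0.071), SLC25A40 (0.053), SLC25A44 (0.038) and SLC35A4 row ENSBGRG00000017965 (0.086). Under quantile normalization they were SLC25A51 (0.171), SLC25A42 (0.095), SLC25A40 (0.098), SLC25A44 (0.094), both SLC35A4 rows (0.195 and, for ENSBGRG00000018014, 0.092), SLC35F6 (0.080), SLC38A1 (0.099), ATP1B3 (0.060), ARL6IP5 (0.118) and AKR1B1 (0.056). With a culture left out, SLC25A51 ranged from -0.0841 to 0.036, SLC25A42 from -0.108 to 0.048, SLC25A40 from -0.228 to 0.129, SLC35E4 from -0.016 to 0.242 and SLC35A4 row ENSBGRG00000017965 from -0.157 to 0.024. Depth limits the members near 0 in a group, which rest on 0 to 10 recovered reads in DPC (SLC5A8, SLC6A14, SLC7A8, SLC2A5 and SLC37A1) and in HMC on 7 (SLC8A1), 13 (SLC43A3) and 37 (SLC6A6). The calls lost under a scaling were small differences, and the cause was not tested.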
